A study of Mus musculus with 6 samples.

Results

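Trefoil factors and mucins are the secreted and surface molecules of mucous epithelia, and 8 of their genes were followed here: Tff1, Tff2 and Tff3, the secreted gel-forming mucin Muc5b, and the transmembrane mucins Muc1, Muc4, Muc16 and Muc20. They were taken by name as a family of mucous-surface genes, and all 8 were found among the 24077 genes of the single-cell table and among the 30828 genes of the tissue section tables. Tff3 was close to absent throughout, and the other 7 had a measurable level in at least 1 cell type or section.

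Trefoil factors are small secreted peptides, best known from stomach and intestine, that are stored with mucins and take part in the repair of a damaged surface. Secreted mucins such as Muc5b build the mucous gel of airways and cervix, whereas transmembrane mucins stay on the apical membrane and form the glycocalyx of the cell. In the mouse uterus Muc1 is known as the main mucin of the luminal surface, and its level follows estrogen. Tff1 is a textbook estrogen-induced gene in human breast cancer cells, and MUC16 carries the CA125 antigen, which is also made by mesothelium.

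The samples came from uteri of CD-1 mice aged 12 months that had received as newborns either corn oil (CO) or diethylstilbestrol, a synthetic estrogen (DES, 1 mg/kg/day). Single-cell RNA sequencing was done on 1 library of pooled uteri for each treatment, from 2 CO and 4 DES mice per the study's methods, so differences between these libraries have no replicate check. Spatial transcriptomics, in which RNA is captured on spots 55 µm wide that can each hold several cells, was done on 2 CO sections (CO A and CO B) and 2 DES sections (DES A and DES B). By the study's account the CO B section was partly folded, DES B was of limited use for finding clusters, each section is 1 mouse, and the DES sections were chosen for the presence of adenocarcinoma. The CO mice were taken in estrus because DES mice have a persistent estrus. In the sections treatment and tumour cannot be told apart.

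Counts are of unique molecular identifiers (UMIs), each standing for 1 captured RNA molecule, and levels are given as CPM, the count scaled to 1000000 UMIs of the group named. Cells numbered 32387 (CO) and 16312 (DES), with medians of 6779 and 10153.5 UMIs, and 180 barcodes occurred in both libraries, 13 of them among the CO and 43 among the DES epithelial cells used. Sections held 9117099 to 12506177 UMIs on 1357 to 1834 spots. CO B stood apart from CO A, with 232 CPM against 6.24 CPM for 8 basal and squamous genes, 50.5 against 271 CPM for 4 luminal genes and 742 against 187 CPM for 7 gland genes. In the spots richest in epithelial genes the 7 gland genes were at 80.7 CPM (CO A) and 236 CPM (CO B). In the other spots they were higher, at 224 and 909 CPM, so their sum is not read as the amount of gland. The basal and squamous genes were at 10536 and 6273 CPM in DES A and DES B.

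Tff1 and Muc16 were higher in the DES sections and Muc5b was higher there in both epithelium-rich and stromal spots, while Muc1, Muc4 and Muc20 did not pass the test in any of the 3 sets of spots. Over whole sections 2 of the 6 members that passed the filter on low counts were called at an adjusted p under 0.05, both higher in DES, against 5.3% of all 14098 genes tested in either direction. Tff1 and Muc16 had few UMIs in the CO sections and passed the filter through the DES sections, where they were high. Tff2, with its highest count in CO A, did not pass it. No conclusion on the family is drawn from this tally. In a section, more cells of a type and more RNA per cell cannot be told apart.

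Tff1 (ENSMUSG00000024032, chromosome 17, 31161395 to 31165277, minus strand, build GRCm38) was counted with 2 and 22 UMIs in the CO sections, A before B, and with 3004 and 8417 UMIs in the DES sections. Its levels were 0.160 CPM, 1.99 CPM, 329 CPM and 852 CPM in the same order. Both DES sections were thus far above both CO sections, while 61.6% of all genes tested had sections that did not overlap between treatments. The log2 fold change was 8.94 ± 1.12 (SE), with a Benjamini-Hochberg adjusted p = 0.0276 from the quasi-likelihood fit of edgeR. The call was lost without DES A (adjusted p = 0.0557) or without DES B (adjusted p = 0.0714), while the log2 fold change stayed between 8.03 and 11.54. The minus-strand Tff1 overlaps the antisense gene Gm15318 over 1660 bases.

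Muc5b (ENSMUSG00000066108, chromosome 7, 141839070 to 141873084, plus strand) is a large mucin of the mucous gel. It was at 4.24 and 0.0906 CPM in the CO sections and at 323 and 135 CPM in the DES sections. The sections did not overlap between treatments, as was the case for 61.6% of all genes tested, and the log2 fold change of 6.45 (SE 1.24) missed the threshold (adjusted p = 0.0582 by edgeR). Without CO A it was called (adjusted p = 0.00891, log2 fold change 10.93), as it was without CO B (0.0137, 5.51), but not without DES A (0.17) or without DES B (0.142). CO A and CO B differed from each other by 53 UMIs against 1 UMI. Of the 53 CO A UMIs, 40 lay in spot cluster 5, whose 140 spots had 36.0 CPM. Scaled to the UMIs of 8 general epithelial genes in place of all UMIs, a setting chosen after seeing the data, Muc5b was called (log2 fold change 6.5, adjusted p = 0.000187), and it was called in 6 of 9 alternatives, among them DESeq2's Wald test (adjusted p = 0.00946) and no filter on low counts (0.0379), with adjusted p from 0.000187 to 0.17.

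Muc16 (ENSMUSG00000109564, chromosome 9, 18495455 to 18674530, minus strand) is the largest of the transmembrane mucins, and had 5 UMIs in CO A and 7 UMIs in CO B. The DES sections held 82 and 309 UMIs, and the 4 levels were 0.400 CPM, 0.634 CPM, 8.99 CPM and 31.3 CPM. Its log2 fold change was 5.08 (SE 0.83, adjusted p = 0.0413 by edgeR). The call was lost without CO A (adjusted p = 0.0549), without CO B (0.0501) and without DES B (0.129, with a log2 fold change of 3.85). Genes of mesothelium, a tissue that also makes Muc16, were for a list of 6 at 36.1 and 51.3 CPM in the CO and at 58.9 and 64.4 CPM in the DES sections, so that both DES sections lay above both CO sections here too, and their part in the result was not tested. Within DES B the level of Muc16 had a Pearson correlation of -0.04 with this list over 1357 spots that share 1 library.

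The remaining transmembrane mucins were abundant in every section. Muc1 was at 389 and 192 CPM in the CO sections and at 454 and 507 CPM in the DES sections. Muc4 was at 285 CPM and 96.6 CPM in the CO sections and at 148 CPM and 206 CPM in the DES sections. Muc20 was at 83.2 CPM and 16.9 CPM in the CO sections and at 30.7 CPM and 52.7 CPM in the DES sections. For Muc1 both DES sections lay above both CO sections, and for Muc4 and Muc20 they lay between CO A and CO B. Of all genes tested, 61.6% had no overlap between treatments. The log2 fold changes were 0.51 (SE 0.38) for Muc1, -0.32 (SE 0.55) for Muc4 and -0.48 (SE 0.77) for Muc20, with adjusted p of 0.48, 0.779 and 0.766 by edgeR, and without CO A those of Muc4 and Muc20 turned positive (0.69 and 1.13) and Muc1 was called higher in DES (1.14, adjusted p = 0.0198).

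Tff2 and Tff3 did not pass the filter on low counts. Tff2, a gastric trefoil factor, had 19 and 5 UMIs in the CO and 1 and 3 UMIs in the DES sections, which is higher in CO A than in the other 3 sections, while CO B (0.453 CPM, interval 0.147 to 1.06) and DES B (0.304 CPM, 0.0626 to 0.887) agree within counting error. Tff3, the intestinal trefoil factor, had 0 UMIs in all 4 sections, which allows a level of up to 0.240 to 0.329 CPM (3 UMIs of each section's total). Tff1, Tff2 and Tff3 lie side by side on chromosome 17 within 39972 bases.

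**Figure D1:**
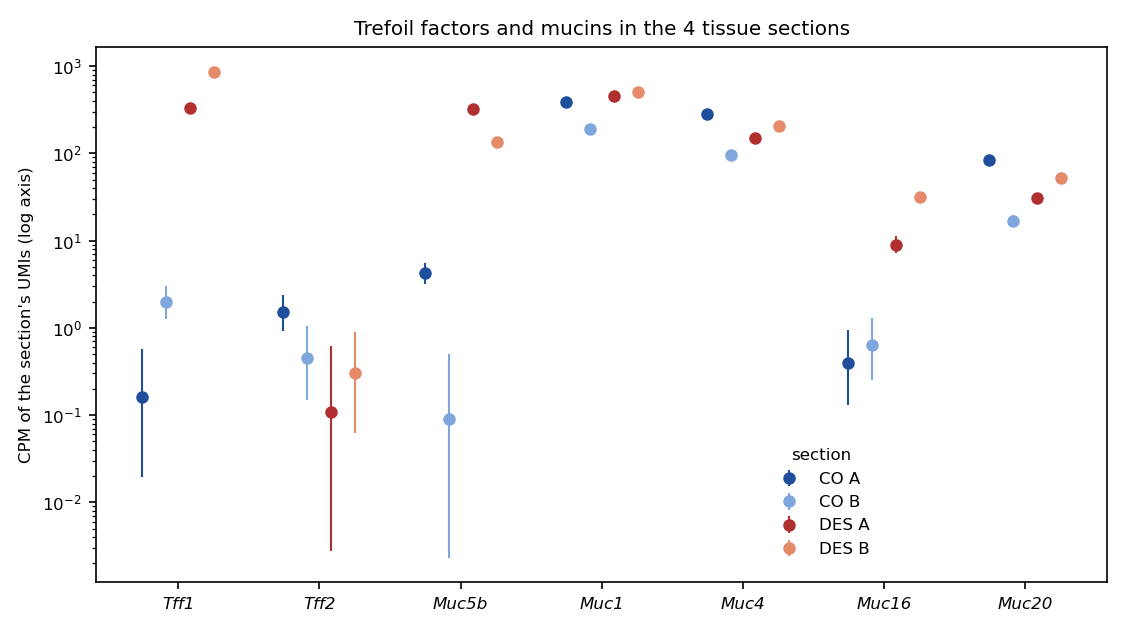
Levels of 7 members in the 4 whole sections, in CPM on a log axis, with 1 point per section and bars for the exact Poisson 95% interval of the count. Tff1, Muc5b, Muc16 and Muc1 have both DES sections above both CO sections, and Muc4 and Muc20 have the DES sections between CO A and CO B. Of all genes tested, 61.6% had no overlap between treatments. Tff3 had no UMI and is not drawn.

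Epithelium-rich spots were the 15% of spots in each section with the highest share of UMIs in the 8 epithelial genes, none of which is a member, and they held 6792 CPM, 5047 CPM, 6508 CPM and 7032 CPM of those genes in the order CO A, CO B, DES A, DES B, which also holds for the values that follow. In them Tff1, Muc5b and Muc16 were all called higher in DES, which is 3 of 6 members tested against 6.49% of all 11203 genes. All 3 had few or no UMIs in the CO spots and passed the filter through the DES spots, so this share carries no weight for the family. The epithelium-rich spots were deeper in the CO sections, with medians of 15346 and 9588 UMIs against 5666.5 and 5833 UMIs in the DES sections.

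Tff1 in these spots was at 0 CPM, 4.03 CPM, 554 CPM and 1898 CPM, which gave 9.0 ± 1.22 (SE) on the log2 scale (edgeR, adjusted p = 0.0193). Muc5b was at 1.84 CPM, 0 CPM, 351 CPM and 239 CPM, which gave 7.82 ± 0.69 (SE; adjusted p = 0.0112), and it was called under all 10 alternative settings run for it. Muc16 was at 0 CPM, 0.733 CPM, 12.1 CPM and 73.4 CPM, which gave 6.47 ± 1.34 (SE; adjusted p = 0.0489). With 2 UMIs in the CO spots against 129 in the DES spots, the ratio of its summed levels was 123, with a counting interval of 33.4 to 1026. For each of these 3 genes both DES sections were above both CO sections. The share of all genes without overlap was not counted in these spots, and was 61.6% over whole sections. In the same spots the 6 mesothelial genes were at 7.67 and 15.03 CPM in the CO and 47.2 and 58.6 CPM in the DES sections, and the basal and squamous genes at 10.4 and 214 CPM and at 9748 and 7313 CPM. Their part in these results was not tested. Without DES B the calls of Tff1 and Muc16 were lost (adjusted p = 0.0509 and 0.244), and with the top 10% of spots that of Muc16 was lost (0.0506).

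Among the same spots Muc1 was at 593 CPM, 333 CPM, 634 CPM and 656 CPM and did not pass the test (log2 fold change 0.15, SE 0.32), with the DES sections above the CO sections. Muc4 was at 502 CPM, 201 CPM, 241 CPM and 271 CPM, with -0.79 ± 0.44 (SE) on the same scale (edgeR, adjusted p = 0.339). Muc20 was at 138 CPM, 35.9 CPM, 52.6 CPM and 59.9 CPM, with -0.96 ± 0.61 (SE; adjusted p = 0.393). Without CO B, Muc4 and Muc20 were called lower in DES (log2 fold changes -1.31 and -1.62, adjusted p = 0.000258 and 0.000126 by edgeR, with the lone CO section assumed to vary like the DES sections), and without CO A Muc1 was called higher (0.66, adjusted p = 0.0149).

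Stromal spots were those of the clusters the study names as stroma, and 5 members were tested there. Tff1 was at 0 and 2.17 CPM in the CO and at 155 and 219 CPM in the DES sections. It was called at 6.91 ± 0.65 (SE) on the log2 scale (edgeR, adjusted p = 0.0102), also under all 8 alternatives run for it. The CO spots held 2 UMIs and the DES spots 233, a ratio of 127 with a counting interval of 34.7 to 1052. Muc5b had 0 UMIs in both CO sections and 148 and 52.0 CPM in the DES sections, at least 60.9-fold higher against a floor of 3 UMIs over the CO group (adjusted p = 0.0210), and the call was lost without DES A (0.138). These were 2 of 5 members against 1.47% of 8914 genes. Both passed the filter on low counts through the DES spots, so this share carries no weight for the family. The stromal spots still held 1241 to 2568 CPM of the 8 epithelial genes and, in the DES sections, 7508 and 2142 CPM of the basal and squamous genes. The part of epithelial RNA in these 2 results was not tested. Muc1 was at 258, 152, 252 and 179 CPM there, Muc4 at 209.5, 66.1, 70.9 and 34.6 CPM and Muc20 at 51.9, 6.50, 16.7 and 8.66 CPM. The treatments overlapped for each of these 3 genes and none passed the test, but Muc4 was called lower in DES in 3 of 8 alternatives, among them without CO B (log2 fold change -1.95, adjusted p = 0.0498 by edgeR) and without the filter on low counts (-1.37, 0.0135).

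**Figure D2:**
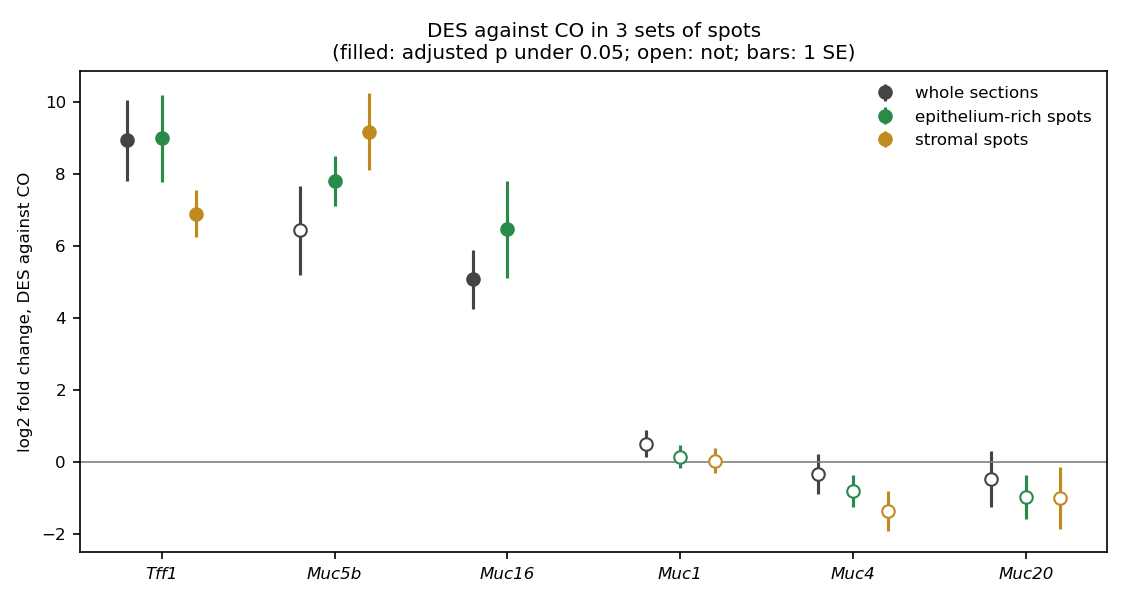
Log2 fold changes, DES against CO, of 6 members in whole sections, epithelium-rich spots and stromal spots, with bars of 1 SE from edgeR; filled points have an adjusted p under 0.05. Tff1, Muc5b and Muc16 lie between 5.08 and 9.18 and the other 3 mucins between -1.35 and 0.51. The stromal Muc5b point is a fitted value with no CO UMI behind it, and Muc16 was not tested in stromal spots.

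Within the CO sections Muc1, Muc4 and Muc20 were higher in epithelium-rich than in other spots of the same section. These were 3 of 6 members tested, a share near the 47.3% of all 13625 genes that this contrast called in one direction or the other. The log2 differences were 1.10 (SE 0.13, adjusted p = 5e-06), 1.52 (SE 0.14, adjusted p = 5.29e-07) and 1.39 (SE 0.18, adjusted p = 1.62e-05) by edgeR with section as a term, and all 3 were called under each of 9 alternatives. Muc5b went the other way without passing the test (-1.41, SE 0.65, adjusted p = 0.0877).

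In the DES sections the same contrast called 4 of 6 members tested, all higher in epithelium-rich spots. Of all 13625 genes it called 7.54%, 276 of them higher and 752 lower. Tff1 and Muc16 passed the filter on low counts through the DES spots, so this share carries no weight for the family. The differences were 1.18 for Tff1 (SE 0.15, adjusted p = 0.000114), 1.195 for Muc16 (SE 0.28, adjusted p = 0.0154), 0.62 for Muc4 (SE 0.15, adjusted p = 0.0148) and 0.46 for Muc1 (SE 0.13, adjusted p = 0.0376) by edgeR. The Muc20 difference of 0.52 (SE 0.20) had an adjusted p of 0.146. Muc5b was not called as enriched either (0.50, SE 0.16, adjusted p = 0.0819 by edgeR), though it was in 4 of 9 alternatives. With DESeq2's Wald test Muc4 was called (adjusted p = 0.0403), and Tff1, Muc16 and Muc1 were not (0.671, 0.292 and 0.0917). Without DES B none of the 4 was called by edgeR (adjusted p = 0.109 to 0.811), and without DES A Tff1 alone was.

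The difference between these enrichments was tested itself, and 11.3% of all genes were called. The enrichment was smaller in the DES than in the CO sections by 0.64 for Muc1 (a difference of -0.64, SE 0.18, adjusted p = 0.0340), with -0.90 for Muc4 (SE 0.20, adjusted p = 0.00991) and -0.87 for Muc20 (SE 0.27, adjusted p = 0.04997, just under the threshold). Muc4 was called in 6 and Muc1 and Muc20 in 3 of 9 alternatives, and none of the 3 was called without DES A or without DES B, where the difference ran from -1.21 to -0.37. The 8 epithelial genes moved the same way, since the other spots held 2796 and 1684 CPM of them in the CO and 3443 and 3810 CPM in the DES sections. Per 1000 UMIs of these genes, Muc1 was at 87.3 and 66.0 in epithelium-rich against 113 and 86.7 in other spots of the CO sections, and at 97.5 and 93.3 against 120 and 126 in the DES sections. The same 8 genes chose the spots, which lowers a ratio to them in the spots chosen, so no direction is read from this scale. Muc4 was at 73.9 and 39.9 against 74.7 and 37.0 in CO and at 37.0 and 38.5 against 37.1 and 51.0 in DES. Muc20 was at 20.2 and 7.12 against 22.9 and 6.29 in CO and at 8.08 and 8.52 against 7.51 and 13.5 in DES. These values per epithelial UMI were not tested, nor was the part of spot depth.

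Spot clusters showed where in the DES sections Tff1, Muc5b and Muc16 lay. In DES B, cluster 7 held 106 of 1357 spots and 69.8% of the Tff1 UMIs, 63.0% of the Muc5b UMIs and 52.4% of the Muc16 UMIs of the section. Its levels were 3963 CPM of Tff1, 568 CPM of Muc5b and 109 CPM of Muc16. In DES A, cluster 1 held 332 of 1575 spots and 79.5% of the Tff1, 63.7% of the Muc5b and 65.9% of the Muc16 UMIs, with 688 CPM, 541 CPM and 15.6 CPM. These 2 clusters also had the highest level of the basal and squamous genes in their sections, 11397 CPM in DES B and 16925 CPM in DES A. In the DES single-cell library, from other mice, the 479 basal cells had 0 UMIs of Tff1, 0 of Muc5b and 6 of Muc16. Muc5b was near 0 throughout that library. The cell source of these RNAs in the spots was not tested.

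Cluster 8 of DES A, with 61 spots, had the highest Muc5b level of any cluster of 20 spots or more, 853 CPM, beside 245 CPM of Tff1 and 14.7 CPM of Muc16, and it held 8244 CPM of 5 myeloid genes. Cluster 2 of both DES sections had little Muc5b (25.1 and 27.6 CPM) and Tff1 at 50.6 CPM and 333 CPM, but had Muc4 at 199 CPM and 364 CPM and Muc20 at 45.3 CPM and 79.5 CPM. The top 10% of spots held 83.9% (DES A) and 86.4% (DES B) of the Tff1 UMIs and 81.4% and 88.8% of the Muc5b UMIs. The same shares were 42.7% and 42.4% for Muc1, 55.6% and 56.4% for Muc4, and 76.8% and 60.8% for Muc20. Over spots, which share a library and differ in depth, Tff1 and Muc5b had a Pearson correlation of 0.49 in DES A and 0.55 in DES B.

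**Figure D3:**
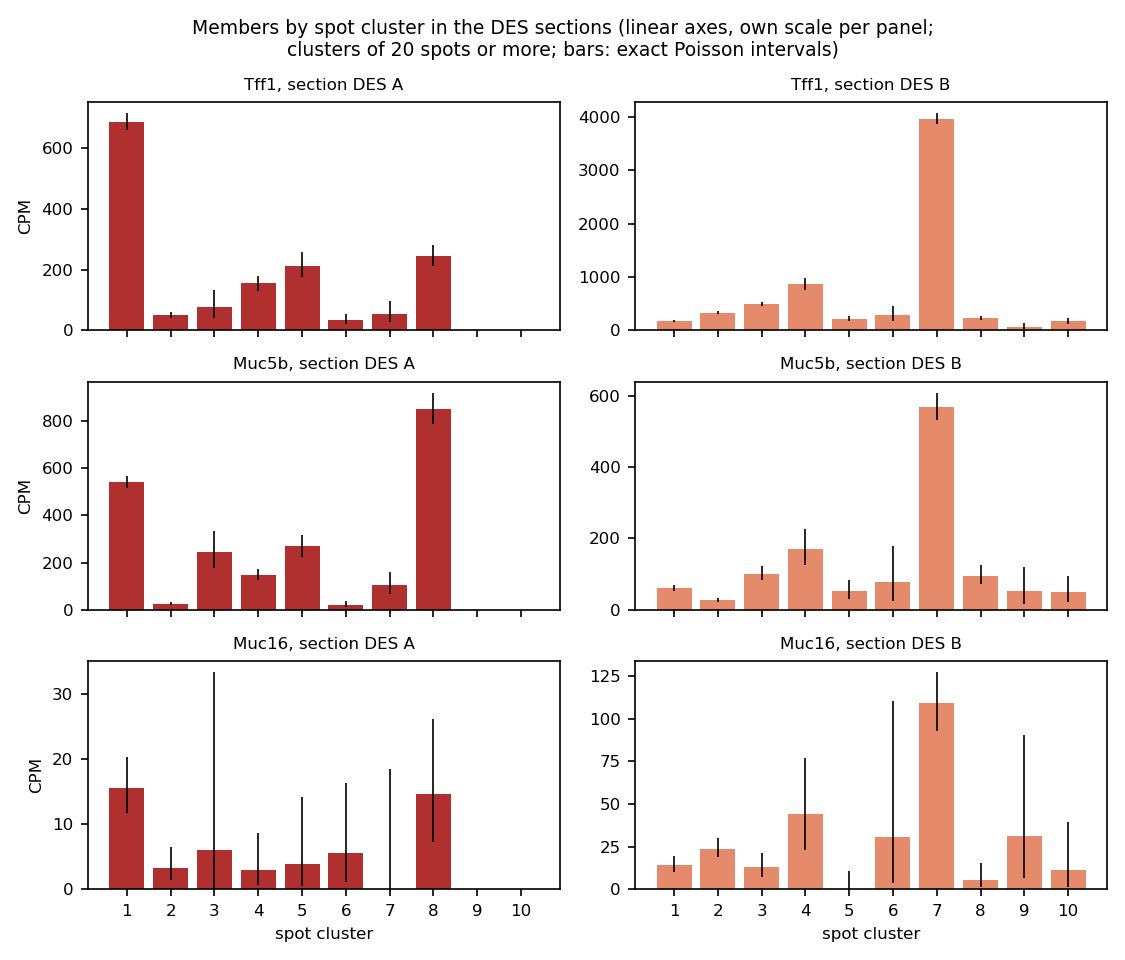
Levels of Tff1, Muc5b and Muc16 in the spot clusters of DES A and DES B, in CPM on linear axes with a scale of its own in each panel and bars for the exact Poisson 95% interval. Cluster 7 of DES B leads for all 3 genes with 3963, 568 and 109 CPM, and in DES A cluster 1 leads for Tff1 and cluster 8 for Muc5b.

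The single-cell libraries gave another picture. Cells in the authors' epithelial clusters without basal cells numbered 2583 in CO and 4608 in DES, of 2583 and 5255 cells called epithelial. In these clusters, called non-basal epithelium here, Muc1, Muc4 and Muc20 were lower in DES and Tff1 and Tff2 were higher. Muc5b and Tff3 were at or near 0 there. Of the 4 members at 10 CPM or more in either library, 1 was at least 2 times as high in DES (6.92% of 8414 genes) and 1 at least 2 times as high in CO (7.71%). The 1 higher in DES was Tff1, which reached 10 CPM through the DES library only, so its place in this count was set by the cut. Intervals on single-cell values cover counting error only.

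Muc1 was at 429 CPM in CO (95% interval 424 to 433) and 264 CPM in DES (261 to 266), a ratio of 0.615 (0.606 to 0.624). Muc4 was at 162 CPM and 64.1 CPM, a ratio of 0.395 (0.385 to 0.405), which made CO 2.53 times DES. Muc20 was at 45.7 CPM and 32.7 CPM, a ratio of 0.714 (0.685 to 0.745). Without the barcodes that occurred in both libraries the 3 ratios were 0.615, 0.395 and 0.715. With every cell thinned to 3000 UMIs, 62.5% of CO and 50.7% of DES cells had a Muc1 UMI, against 91.7% and 94.6% before thinning. The Muc1 share was 19.0% and 11.3% in lymphocytes, which should lack it, at medians of 4033 and 5599 UMIs, and the matching Muc4 shares were 33.3% and 17.1% in epithelium against 6.13% and 2.35% in lymphocytes.

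The CO clusters fell apart by type. The 10 luminal clusters of the authors' grouping (2095 cells) held 481 CPM of Muc1, 183 CPM of Muc4 and 50.2 CPM of Muc20. The 4 gland clusters (417 cells) held 51.0 CPM, 17.5 CPM and 16.2 CPM, all below the luminal levels. No gland cluster reached a luminal one for any of the 3 genes. In cells that should lack these mucins, Muc1 was at 71.6 CPM and Muc4 at 17.4 CPM in CO lymphocytes, which were shallower than gland cells (medians of 4033 and 17202 UMIs), and at 28.5 CPM and 7.02 CPM in CO mesothelial cells. The gland levels lay between or near these values, with gland clusters from 32.0 to 96.6 CPM for Muc1, so free RNA in the gland cells was not separated from their own and no fold against them is given for Muc1 and Muc4. For Muc20 luminal cells had 3.10 times the gland level (2.62 to 3.69). Cluster 12, which the study sets apart from both, lay between them for Muc1 (291 CPM) and Muc4 (62.2 CPM) and had 20.4 CPM of Muc20.

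DES clusters spread over the range that the CO types left between them. Of 16 DES clusters, 15 had a Muc1 level above every gland and below every luminal CO cluster, and 1 lay within the luminal range. For Muc4 the counts were 13 and 3. For Muc20, 1 cluster lay above the luminal range, 4 within it, 5 between and 6 within the gland range. The highest DES level was 437 CPM of Muc1 in cluster 1 and the lowest 138 CPM in cluster 8, a 3.16-fold range. Basal cells of the DES library (479 cells) were low in all 3, with 109 CPM, 11.2 CPM and 6.17 CPM, beside 34.2 CPM, 7.39 CPM and 4.70 CPM in DES lymphocytes.

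**Figure D4:**
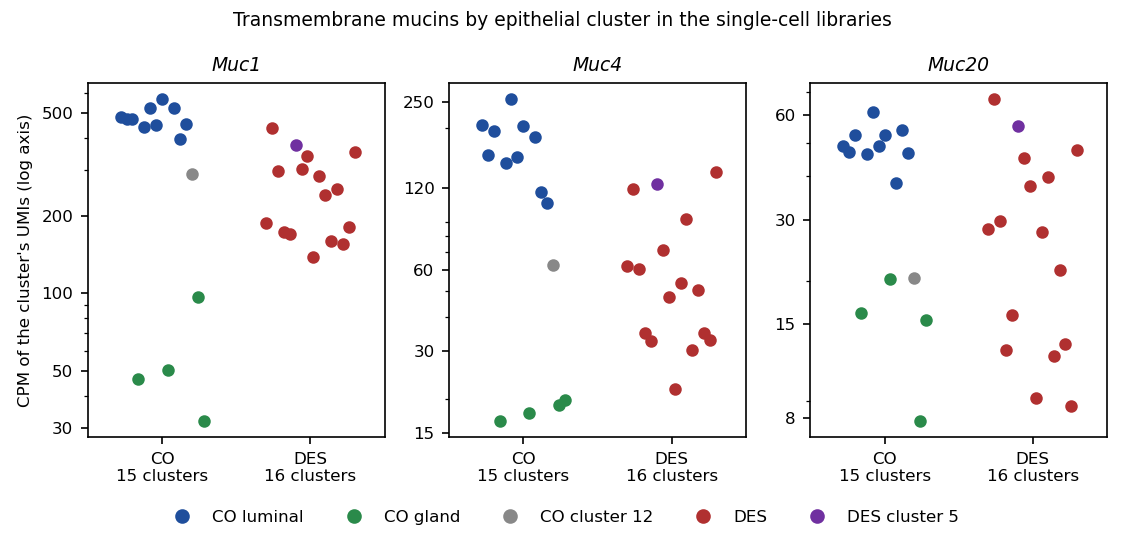
Levels of Muc1, Muc4 and Muc20 in the 15 CO and 16 DES epithelial clusters, in CPM on log axes, with 1 point per cluster. CO luminal and gland clusters form groups that do not overlap, and 15 of 16 DES clusters for Muc1 and 13 for Muc4 lie between them.

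Muc1, Muc4 and Muc20 varied together over the clusters, although cells of a cluster share a library. The Pearson correlation of log2(CPM + 1) was 0.96 between Muc1 and Muc4 over the 15 CO clusters and 0.85 over the 16 DES clusters, and between Muc4 and Muc20 it was 0.92 and 0.93. Luminal and gland clusters of CO did not overlap for these genes, so the CO values partly restate that split. The genes most like Muc4 over CO clusters were Itgam (0.99) and Slc40a1 (0.99), and those most like Muc1 were Atp10b and Elk3 (both 0.99). In DES clusters they were Postn and Ostf1 (both 0.94) for Muc4 and the interferon-induced Gbp2 (0.94) and the immunoproteasome gene Psmb8 (0.93) for Muc1, and Gbp2 (0.95) also led for Muc20.

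Because these 3 genes moved together, the 250 bases before their start sites are shown. RefSeq promoter sequences (GRCm38.p6) were at hand for 4 of the 8 members. The sequences run 5' to 3' on the gene's strand at chr3:89228806-89229055 (Muc1, plus strand), chr16:32735636-32735885 (Muc4, plus strand) and chr16:32797436-32797685 (Muc20, minus strand), and capitals mark the letters of a searched motif.
Muc1: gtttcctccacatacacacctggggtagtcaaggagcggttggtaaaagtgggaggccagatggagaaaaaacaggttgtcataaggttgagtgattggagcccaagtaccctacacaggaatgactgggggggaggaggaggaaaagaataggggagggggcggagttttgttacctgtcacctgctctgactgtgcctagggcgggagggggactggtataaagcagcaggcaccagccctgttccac
Muc4: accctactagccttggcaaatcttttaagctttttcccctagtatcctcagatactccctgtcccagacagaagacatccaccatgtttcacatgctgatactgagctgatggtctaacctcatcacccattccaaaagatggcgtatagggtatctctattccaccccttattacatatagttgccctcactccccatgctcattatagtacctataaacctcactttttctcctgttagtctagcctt
Muc20: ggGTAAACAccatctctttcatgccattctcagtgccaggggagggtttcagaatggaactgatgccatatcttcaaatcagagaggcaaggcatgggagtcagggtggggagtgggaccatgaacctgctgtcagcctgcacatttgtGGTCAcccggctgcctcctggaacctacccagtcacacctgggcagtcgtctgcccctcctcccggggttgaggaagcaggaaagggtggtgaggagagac
Searched on both strands were the estrogen response element GGTCANNNTGACC, its shorter arm TGACC, the forkhead letters TGTTTAC and TATTTAC, and the AP-1 letters TGANTCA. The Muc20 window held GTAAACA, the reverse complement of TGTTTAC, from base -248, and GGTCA, the reverse complement of TGACC, from base -101, whereas Muc1 and Muc4 had no match. Of 32851 RefSeq promoters in windows of the same length, 0.0639% held the full element, 35.2% held TGACC, which the full element contains, 3.17% held TGTTTAC, 2.73% held TATTTAC and 6.75% held TGANTCA. Muc4 and Muc20 lie on opposite strands of chromosome 16 (Muc4 from 32735886 to 32782391, Muc20 from 32777419 to 32797435) and overlap at their 3' ends over 4973 bases, so reads there may be uncertain in their gene. The part of this overlap in the correlation of Muc4 with Muc20 was not tested.

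Among annotated cells of the DES library, Tff1 was concentrated in 1 epithelial cluster. Over all DES non-basal epithelial cells it was at 10.8 CPM (1773 UMIs) against 0.0888 CPM (7 UMIs) in CO, a ratio of 122 (58.9 to 303). DES cluster 5 (295 cells) held 1696 of these UMIs, 95.7%, at 191 CPM (182 to 200.4), and no other DES cluster exceeded 3.71 CPM. Within cluster 5 only 85 cells had a Tff1 UMI, 30 had 10 or more, the top cell had 324 and the top 10 cells together 66.3%. Without those 10 cells, a setting chosen after seeing the data, the cluster was still at 67.4 CPM. Without the 4 shared barcodes it was at 194 CPM. Cells with no cell type held a further 4389 Tff1 UMIs, of which 3553 came from 453 cells of very low sequencing saturation.

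The same cluster led for Tff2 and Muc16. Tff2 was at 26.9 CPM (239 UMIs) in cluster 5 and between 0.111 and 5.78 CPM in the other DES clusters. A Tff2 UMI was in 56 of the 295 cells of cluster 5 and a Muc16 UMI in 45. The top 10 cells for each held 54.8% and 49.6% of these UMIs. Muc16 was at 14.5 CPM (129 UMIs, 60.3% of the DES non-basal epithelial total) in cluster 5 and at most 1.01 CPM elsewhere, with 6 mesothelial genes at 34.9 CPM in cluster 5 against 25.4 CPM over all these cells. Muc1 (375 CPM), Muc4 (124 CPM) and Muc20 (55.8 CPM) each had the next to highest level of the 16 DES clusters there. Muc5b had 2 UMIs there, in 1 cell.

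Tff2 and Muc16 were detected more often in the cells of cluster 5 with a Tff1 UMI than in its other cells. A Tff2 UMI was found in 43.5% of the 85 cells with Tff1 and in 9.05% of the other cells, and a Muc16 UMI in 40.0% and 5.24%, whereas Muc5b was in 0 of the 85 cells. The disulfide isomerase Agr2, which helps mucins to fold, had a UMI in 82.4% and 53.8%. Olfm4, a cancer marker in the study, had one in 72.9% and 70.5%. Cells with Tff1 were deeper, with medians of 26627 and 19729.5 UMIs, and the part of depth in these shares was not tested. As summed CPM, Tff2 was at 67.8 in cells with Tff1 and 6.58 in those without, and Muc16 at 35.6 and 4.05. Over the 16 DES clusters the genes most like Tff1 were AC107707.3 (0.95) and Nccrp1 (0.94), and Tff1 correlated with Muc16 at 0.89 and with Tff2 at 0.81, with cluster 5 high in each of these genes.

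**Figure D5:**
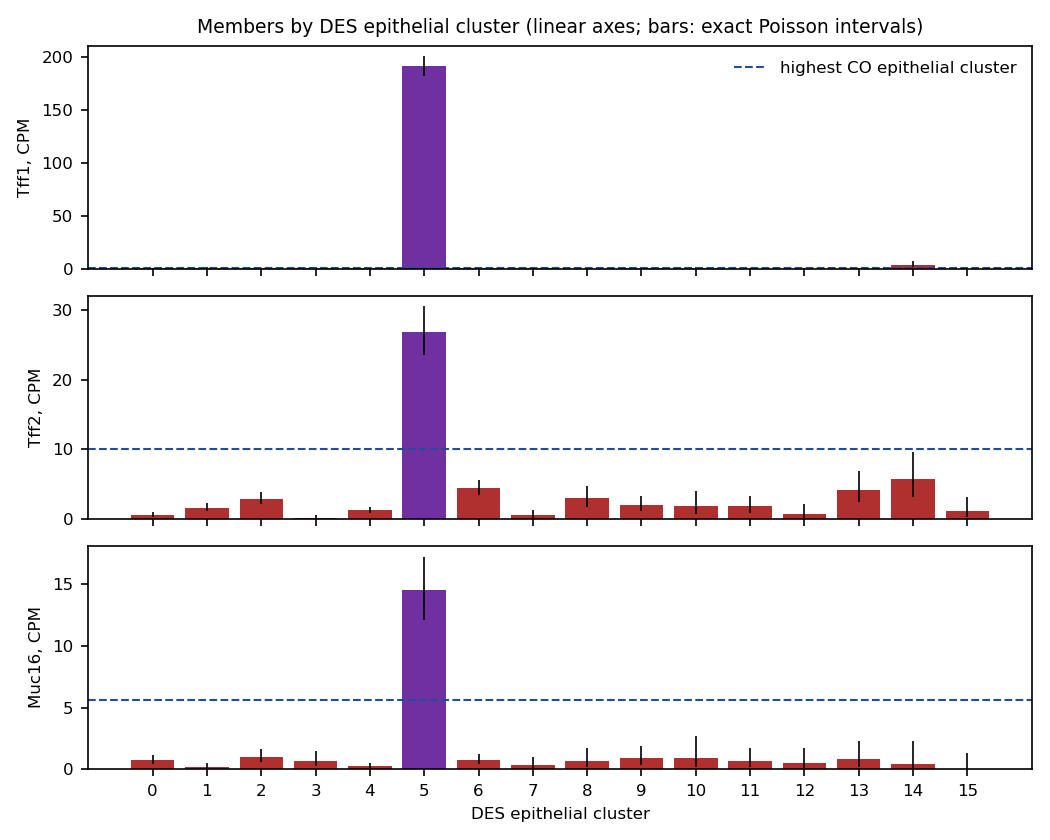
Levels of Tff1, Tff2 and Muc16 in the 16 DES epithelial clusters, in CPM on linear axes, with bars for the exact Poisson 95% interval and a dashed line at the highest CO epithelial cluster. Cluster 5 leads for all 3 with 191, 26.9 and 14.5 CPM, and is the only DES cluster above the line for Muc16, while for Tff1 cluster 14 (3.71 CPM) also lies above it. The Tff2 line rests on 1 CO cell, without which the highest CO cluster is at 2.47 CPM and 6 DES clusters lie above it.

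Tff2 had 89 UMIs in CO non-basal epithelium, Tff1 had 7 and Tff3 had 0. Gland clusters held 6.31 CPM (55 UMIs) and luminal clusters 0.468 CPM (32 UMIs), but 41 of the gland UMIs came from 1 cell of cluster 3, and the other cells of that cluster were at 1.65 CPM. Tff2 was at 3.22 CPM in DES non-basal epithelium against 1.13 CPM in CO, a ratio of 2.86 (2.28 to 3.62). Without that 1 CO cell, a setting chosen after seeing the data, CO was at 0.609 CPM (48 UMIs) and the ratio was 5.29 (3.93 to 7.27). Leaving out the barcodes that occurred in both libraries, 3 of them in CO cluster 3, moved the ratio nearly as far. In the sections, from other mice, Tff2 was not higher in DES, with 19 and 5 UMIs in CO and 1 and 3 UMIs in DES. Tff3 had 2 UMIs in the whole CO library, 1 of them in a stromal cell, and 0 in the DES library.

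Muc5b was nearly missing from both single-cell libraries. In CO epithelium 22 of its 23 UMIs were in cluster 11 (5.84 CPM), one of the luminal clusters. In the DES library 8 UMIs were counted in 16312 cells, all in non-basal epithelium (0.0488 CPM), beside 135 to 323 CPM in the DES sections. Per the study's methods, the uteri for single cells and for sections were from independent groups of mice, and the tables were normalised separately. The cause of the gap was not tested. Spdef, the transcription factor of mucous cells, went with Muc5b in this, with 32 UMIs (0.195 CPM) in DES epithelial cells against 64.4 to 83.5 CPM in the DES sections.

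Muc16 had its highest single-cell level outside the epithelium. Cells that the authors call mesothelial held 98.3 CPM in CO (6866 cells, 96.2 to 100.4) and 87.6 CPM in DES (3837 cells, 85.3 to 89.9), a ratio of 0.891 (0.862 to 0.922), and non-basal epithelium held 1.62 CPM and 1.30 CPM. In lymphocytes, which should lack it and were shallower, it was at 7.56 and 2.69 CPM. CO epithelial clusters ran from 0 to 5.59 CPM and DES clusters other than cluster 5 from 0 to 1.01 CPM, so free RNA was not separated from the cells' own, while cluster 5 (14.5 CPM) lay above the lymphocyte levels of both libraries. A Muc16 UMI was found in 24.6% and 21.5% of mesothelial cells after thinning, against 0.468% and 0.504% of epithelial cells. These cells had 2817 and 2892 CPM of 6 mesothelial genes, but also 18387 and 19511 CPM of 7 stromal genes, above the 15978 CPM of the cells called stromal, so that the cells under this label carried both sets in sum. Muc1 was at 28.5 and 10.1 CPM in them, below its 71.6 and 34.2 CPM in lymphocytes.

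Genes that work with mucins were counted in 3 lists. Over whole sections, 4 of 17 genes tested for mucous secretion were called against 5.3% of all genes, all higher in DES: Spdef (log2 fold change 7.51), Rab27a (1.69), Foxa3 and Ern2. Foxa3 had 3 UMIs in the CO and 195 in the DES sections (a ratio of 80.5, counting interval 27.2 to 394), and Ern2 had 1 and 90 (112, 19.5 to 4453). Spdef and Foxa3 are transcription factors of mucous cells, Ern2 is a stress sensor of their endoplasmic reticulum, and Rab27a takes part in vesicle release. Spdef was at 0.400 and 0.272 CPM in the CO and at 83.5 and 64.4 CPM in the DES sections (adjusted p = 0.0136 by edgeR). The list's median was 0.79 against -0.01 over all genes. Spdef, Foxa3 and Ern2 had few UMIs in the CO sections and passed the filter on low counts through the DES sections. The share called and the median therefore carry no weight for the list.

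Of the enzymes that build mucin O-glycans, 3 of 23 tested were called, again against 5.3% of all genes. Galnt6 (log2 fold change 1.89), which starts O-glycans, and St3gal4 (1.56), which adds sialic acid, were higher in DES and Galnt16 (-1.98) lower, with a list median of 0.16. Of the other mucins 1 of 8 was called, Muc13, a transmembrane mucin of the gut, at 7.92 CPM, 11.7 CPM, 81.6 CPM and 107 CPM over the sections (3.07 ± 0.29 (SE) on the log2 scale, edgeR, adjusted p = 0.0212), and the list median was -0.57.

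In epithelium-rich spots 6 of 15 secretion genes were called against 6.49% of all genes, all higher in DES, and beside Spdef, Foxa3, Ern2 and Rab27a they were the chloride channel Ano1 (log2 fold change 3.01) and Agr2 (1.75). Spdef, Foxa3 and Ern2 had few or no UMIs in the CO spots and passed the filter on low counts through the DES spots. This share therefore carries no weight for the list. Agr2 was at 35.3 CPM, 42.5 CPM, 144 CPM and 182 CPM. Of 22 O-glycan enzymes 3 were called higher, St3gal4 (log2 fold change 2.65), St3gal2 (2.05) and Galnt6 (1.55), and of 6 other mucins Muc13 (2.21) was higher and Cd24a (-1.57) lower. In stromal spots 1 of 11 secretion genes (Spdef), 0 of 19 enzymes and 0 of 5 other mucins were called by edgeR, against 1.47% of all genes. Spdef had 0 UMIs in the CO stromal spots and passed the filter through the DES ones. In single-cell epithelium, of genes at 10 CPM or more, 0 of 3 other mucins, 1 of 16 enzymes and 1 of 11 secretion genes were at least 2 times as high in DES (6.92% of all genes), and 1, 2 and 2 of them at least 2 times as high in CO (7.71%). The median log2 ratios, DES over CO, were -0.65 for the other mucins, -0.73 for the enzymes and -0.87 for the secretion genes, beside 0.06 over all genes. These medians cover only genes at 10 CPM or more, which leaves out Spdef, Foxa3 and Ern2. They are therefore over other genes than the medians of the sections and are not set against them. Of the secretion genes called in epithelium-rich spots, 2 were lower in DES single-cell epithelium. Ano1 was at 0.969 CPM in DES and 4.40 CPM in CO, and Rab27a at 7.35 and 11.3 CPM. Agr2 was at 24.0 CPM in DES and 18.4 CPM in CO, and Spdef, Foxa3 and Ern2 were near 0 in both libraries. Among genes picked after their values were seen, Muc13 was at 12.8 CPM in DES and 12.6 CPM in CO, with Gcnt3, a branching enzyme of mucin glycans, at 97.1 CPM and 28.7 CPM, and Lypd8, a secreted protein of the gut surface, at 156 CPM and 2.02 CPM. Gcnt3 and Lypd8 were the enzyme and the secretion gene at least 2 times as high in DES. Those at least 2 times as high in CO were Cd164 (137 CPM in DES, 287 CPM in CO) among the other mucins. Of the enzymes they were Galnt3 (27.6 and 83.5 CPM) and Fut2 (34.3 and 90.0 CPM). The secretion genes were Slc12a2 (68.4 and 228 CPM) and Cftr (50.7 and 107 CPM).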

How the data were processed

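Uteri of 12-month-old mice were profiled by single-cell RNA sequencing (1 library per treatment) and by spatial transcriptomics (2 sections per treatment). The deposited values are counts of UMIs per gene and cell or spot, made by the authors with Cell Ranger 3.0.1 and Space Ranger 1.2.2 on mm10, per the submitters' processing notes, and the cell table also gives the deposited sequencing saturation of each cell as a fraction. Doublets had been removed by the authors with scran. Cell types, epithelial clusters and spot clusters are theirs. DES basal cells were epithelial cells with Krt14 and Trp63 counts over 1. For 350 cells of the metadata no counts were used here. Cell Ranger counts from 3' tags, so levels were not compared between genes, and the strand setting of the counting is not given in the sources used here.

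Section counts were summed over spots and compared with edgeR 4.0.16 (quasi-likelihood test, TMM, filterByExpr, Benjamini-Hochberg adjustment over all genes tested, threshold 0.05) in R 4.3.3. SE is the log2 fold change divided by the square root of F. A section is 1 mouse, and p-values measure the spread between 2 sections per treatment. Epithelium-rich spots were the top 15% by share of 8 epithelial genes, and their enrichment was fitted with section as a term. DESeq2 1.42.0, other scalings and filters, 10% and 25% of spots and leaving out each section were the alternatives. The scripts were tested on simulated data.

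Single-cell levels are summed CPM with exact Poisson 95% intervals. Shares of cells were taken after thinning each cell to 3000 UMIs, with exact Clopper-Pearson intervals, and ratios have exact conditional intervals. Likeness was the Pearson correlation of log2(CPM + 1) over clusters, for genes at 10 CPM or more in a cluster. Named genes were all members, up to 6 called genes per list and test with the largest change and sections apart, and the 2 most alike genes of each member. The members, lists and tests were chosen with earlier results of these data known.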

Additional observations from a re-analysis of the deposited data

Results flagged for a closer look

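The enrichment of 3 transmembrane mucins in epithelium-rich over other spots differed between treatments by a test of the difference itself (edgeR's quasi-likelihood test). On the log2 scale, DES minus CO, it was -0.64 for Muc1 (adjusted p = 0.0340), -0.90 for Muc4 (adjusted p = 0.00991) and -0.87 for Muc20 (adjusted p = 0.04997). None of the 3 was called without DES A or without DES B. The 8 epithelial genes were also less concentrated in the DES sections, with 3443 and 3810 CPM in other spots against 2796 and 1684 CPM in CO, and their part in the result was not tested.

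Cells with no cell type enter no comparison of the report, and those of the DES library held trefoil factor RNA above the level of the CO library. Among cells with a sequencing saturation of 0.1 or more, Tff1 was at 19.9 CPM in 6158 DES cells and 0.0295 CPM in 20108 CO cells, and Tff2 was at 5.22 CPM and 0.189 CPM. Tff1 was detected in 51 of the 6158 DES cells. A few of these cells held stomach genes. Gkn1 was at 2.07 CPM in DES (87 UMIs in 3 cells) and 0.0059 CPM in CO (1 UMI), Gkn2 at 1.38 CPM (58 UMIs in 1 cell) and 0.0059 CPM (1 UMI), and Pgc at 7.34 CPM (308 UMIs in 7 cells) and 2.95 CPM (500 UMIs in 12 cells). Of the same list, Muc5ac was at 0.810 CPM (34 UMIs in 28 cells) and 0.248 CPM (42 UMIs in 39 cells), and Anxa10 had 0 UMIs in both. Their part in the result was not tested.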

How the results depend on the processing

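Of the members' log2 fold changes under the alternatives, 240 kept their direction and side of the threshold, 27 gained a call, 36 lost one and 13 changed sign. The cause of these changes was not tested. With DESeq2's Wald test the genes called numbered 1791 over whole sections (747 by edgeR), 3608 for the enrichment in CO (6448), 426 in DES (1028) and 539 for its difference (1545). Without the filter on low counts they were 1644 in epithelium-rich (727) and 714 in stromal spots (131), and with 10% of spots 634 for the DES enrichment and 753 for the difference. Leaving out 1 section at a time gave 3 to 2819 genes over whole sections (3 without DES B), 36 to 2688 in epithelium-rich spots, 40 to 357 in stromal spots, 4955 to 5978 and 73 to 1784 for the enrichments in CO and DES, and 135 to 2501 for the difference. Scaled to epithelial UMIs, 371 genes were higher and 549 lower in DES over whole sections (376 and 371 by TMM), with the median of all genes at -0.24 in place of -0.01.

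Sections with the same letter did not deviate together (correlation -0.0059 over 12742 genes). Since CO A and CO B also differ in tissue content, this value cannot tell whether the letters stand for a shared batch. By the study's methods the sections of both treatments were on the same slide. The fit with the letter as a replicate block called 527 genes over whole sections, 707 in epithelium-rich spots and 453 in stromal spots. Under this block Muc5b over whole sections (adjusted p = 0.0324) and Muc4 in stromal spots (-1.38, adjusted p = 0.0396) gained a call by edgeR, and no other call of a member changed.

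Signs that changed without 1 section were, on the log2 scale over the range of leaving out each: Muc4 (-0.92 to 0.69) and Muc20 (-1.22 to 1.13) over whole sections; Muc1 (-0.21 to 0.66), Muc4 (-1.31 to 0.050) and Muc20 (-1.62 to 0.35) in epithelium-rich spots; Muc1 (-0.29 to 0.42) and Muc20 (-1.93 to 0.96) in stromal spots; Muc16 (-4.70 to 0.32) and Tff1 (-3.46 to 1.64) for the CO enrichment, and Tff1 (-0.45 to 4.65) for the difference, which was 0.26 by DESeq2.

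In single cells the DES to CO ratio of Muc1 was 0.648 as a mean over cells, 0.633 without the 20 most abundant genes and 0.590 over all epithelial cells (0.615 as reported), that of Muc4 was 0.452, 0.407 and 0.372 (0.395), and that of Muc20 was 0.673 over all epithelial cells (0.714). That of Tff2 was 5.26 without shared barcodes and 5.29 without the CO cell with the most Tff2 UMIs (2.86). Tff1 in DES cluster 5 was at 215 CPM as a mean over cells, 232 CPM without the 20 most abundant genes and 67.4 CPM without its 10 top cells (191 CPM), and its share of cells was 19.2% at 5000 UMIs and 28.8% unthinned (12.8%). In DES cells with no type, Tff1 was at 19.9 CPM without cells of saturation under 0.1 and 89.2 CPM without shared barcodes (104 CPM), and Tff2 at 5.22 and 47.8 CPM (52.9 CPM). The settings on epithelial scaling, saturation, shared barcodes and top cells (Tff1 and Tff2) were chosen after seeing the data. With 2 sections per treatment an exact permutation test cannot go below 0.333, and the low counts of Tff2 and Tff3 in the sections allow little to be said of them.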

Other observations

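Cells without a cell type included 453 DES and 26 CO cells with a saturation under 0.1, a value chosen after seeing the data and not found below 0.1 in any annotated cell. They were shallow, with medians of 644 and 2819 UMIs. Tff1 was at 9870 CPM in the DES and 10780 CPM in the CO ones, which was 57.4% and 98.0% of all Tff1 UMIs of the libraries. A Tff1 UMI was in only 66 of the 453 DES and 5 of the 26 CO cells. Tff2 was at 5617 CPM and 3259 CPM, which was 72.7% and 62.8% of all Tff2 UMIs of the libraries. Muc5b and Muc16 had 0 UMIs in them.

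Genes of stomach epithelium, listed after seeing the data, were high in the same cells. The pepsinogen gene Pgc was at 43061 CPM (DES) and 175856 CPM (CO), Gkn1 at 8987 CPM and 10445 CPM, and Gkn2 at 6731 CPM and 7998 CPM. The Y-linked genes Ddx3y, Eif2s3y, Kdm5d and Uty together had 26 UMIs in the 453 DES cells and 4 UMIs in the 26 CO cells. All 26 CO cells and 35 of the 453 DES cells had barcodes that occurred in both libraries. The source of this RNA was not tested.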
